A study of Homo sapiens with 2 samples.

Results

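The genes described here are the BCL2 family, the caspases, the inhibitor of apoptosis proteins (IAPs) and their adaptors and antagonists, 35 listed genes in 7 roles. They were followed in LNCaP cells, a human prostate carcinoma line, in which KDM4A, a demethylase of histone H3, had been knocked down. The members were found as every probe set that the platform annotation gives to 1 gene, that gene being on the list. This gave 99 probe sets for 32 genes, out of 34880 probe sets for 17689 genes in the whole series. BCL2A1 and BIRC3 had no probe set here, and BBC3 had none that the annotation gives to it alone, so these 3 were not analysed.

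The shKDM4A group was LNCaP cells infected with lentivirus carrying a hairpin specific for KDM4A, and the control group was LNCaP cells infected with lentivirus from the empty pLKO.1 vector. Both were harvested 3 days after infection, with lentiviral particles produced in HEK293T packaging cells, and total RNA was hybridised to Affymetrix Human Genome U133 Plus 2.0 arrays. There was 1 array in each group. No difference below therefore has a replicate check or a p-value, the number of arrays limits the precision, and the empty vector expresses no hairpin of its own. RNA in bulk cells cannot tell fewer expressing cells from less RNA per cell.

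Apoptosis through mitochondria is governed by the balance between survival proteins of the BCL2 family, which hold back the pore-forming effectors, and BH3-only proteins, which neutralise the survival proteins or switch the effectors on. Once the outer mitochondrial membrane is breached, cytochrome c assembles APAF1 and CASP9 into the apoptosome, and DIABLO and HTRA2 are released to displace the IAPs from caspases. A separate route starts at death receptors, where FADD gathers CASP8 and CASP10, and CFLAR competes with them. In prostate carcinoma, BCL2 is known for its link to survival under androgen withdrawal.

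Each deposited value is a log2 signal minus the mean of the 2 arrays, so the shKDM4A and control values of a probe set mirror each other around 0 and the level itself is lost. The difference used throughout is shKDM4A minus control on the log2 scale, and a gene's value is the mean over its probe sets. An SD given with a gene value is the spread over its probe sets, not over cultures. The 17689 gene values had a median of 0.020 and quartiles of -0.14 and 0.18. Probe sets of the same gene varied with a pooled SD of 0.33. The 18 hybridisation spike-in probe sets differed by -0.0099 ± 0.045 (SD, n = 18 probe sets). The 2 probe sets of KDM4A itself read -0.73 and -0.45 in the shKDM4A array, against 0.73 and 0.45 in the control array. Both were lower under the hairpin, by 2.26-fold as a mean.

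The lost levels mean that the presence of a transcript, and the labelled cell type, could not be checked by signal. The values did hold exact ties. Of all 44672 probe sets, 40.3% held a value that at least 1 other probe set held to the last deposited digit. None of the 18 probe sets for the luminal prostate markers measured here did so, while all 6 for leukocyte markers did, as did 7 of 12 for fibroblast, 1 of 4 for basal and 1 of 6 for embryonic kidney markers. The gene differences of these lists had medians of 0.11 (luminal, 8 genes), -0.013 (leukocyte, 4), 0.34 (fibroblast, 4), -0.22 (basal, 3) and 0.028 (embryonic kidney, 3). Members of the luminal and fibroblast lists lay far apart. FOXA1 was 2.23-fold lower (-1.16 ± 1.75) through 1 of its 2 probe sets, and TMPRSS2 lay at -0.76 ± 0.16 with all 4 below 0. The 6 other luminal genes lay above 0, from KRT18 at 0.076 to FOLH1 at 0.48. Among the fibroblast genes, COL1A1 and COL3A1 lay at 0.73 ± 0.76 over 4 probe sets and 0.63 ± 0.68 over 3. DCN lay at 0.044 and PDGFRB at -0.23. The part of other cell types in the results was not tested. Tied values also lay nearer 0, with a median size of the difference of 0.139 for tied and 0.244 for untied probe sets with 1 gene. Among the members, 27 of 99 probe sets (27.3%) were tied, and most of these are named below. Whether ties mark transcripts below detection was not tested.

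Across the 32 measured members, the gene values had no common direction. The gene median was 0.063, with 17 genes above 0 and 15 below (53.1% above, against 53.7% of all genes). At least 2-fold higher was 1 member, BIK, against a background of 1.16% of all genes, and at least 2-fold lower was none, against 1.44%. A size of 1.5-fold was passed upward by 2 members, BIK and BAX, where the background was 4.3%, and downward by none, where it was 4.38%. By single probe sets, 1 of 99 was 2-fold or more higher and 2 were 2-fold or more lower, with backgrounds of 1.48% and 2.39%. At 1.5-fold these counts were 7 higher and 9 lower, with backgrounds of 5.5% and 6.37%. CFLAR, which has 12 probe sets, supplied both of those 2-fold lower and most of the 9. Counts this small, at shares this near the background, describe the single members and not the set.

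The roles differed in where their members lay. BH3-only members had the highest median, 0.29 over 7 genes, and inhibitor proteins the lowest, -0.24 over 4. That lowest place was lost when _x_at and _s_at probe sets, which may also bind other transcripts, were left out (inhibitor proteins -0.12, BNIP3 pair -0.25, adaptors and antagonists -0.29), and when CFLAR was counted among the adaptors (-0.12 against -0.19). The highest place passed to the effectors among genes with 2 or more probe sets (effectors 0.27 over 2 genes, BH3-only 0.20 over 5). BIK and BMF, with 1 probe set each, dropped out there. Survival proteins had a median of 0.12 over 5 genes, effectors 0.080 over 3 and adaptors with IAP antagonists 0.11 over 4. Caspases, with 7 genes, lay near 0 at -0.012. The BNIP3 pair, mitochondrial receptors for mitophagy that carry a BH3-like stretch, had a median of 0.0029, with its 2 genes on opposite sides of 0. No role was tested against another.

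**Figure D1:**
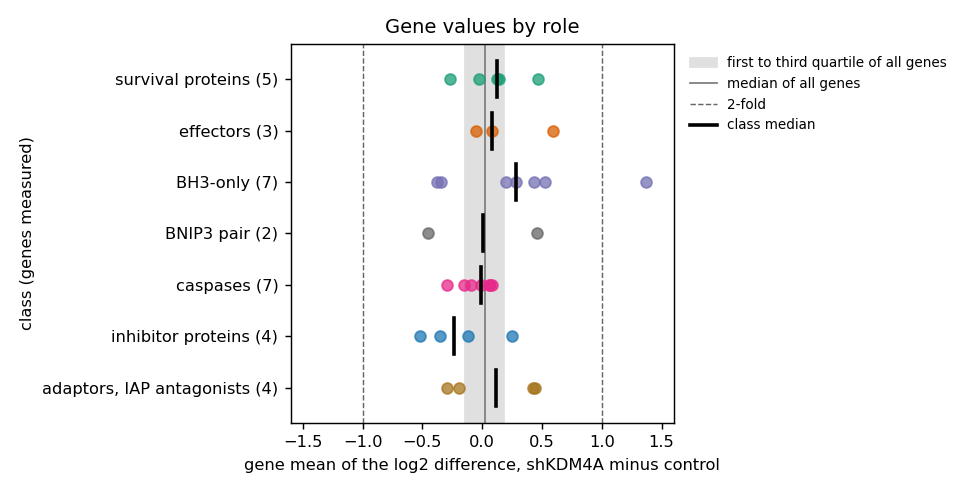
Gene means of the log2 difference, shKDM4A minus control, for the 32 measured members by role, 1 point per gene, with each role's median as a black bar and the span between the quartiles of all 17689 genes, from -0.14 to 0.18, shaded. BIK, at 1.37, is the only point beyond the dashed 2-fold lines, and the 7 caspases sit between -0.30 and 0.080.

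Among the survival proteins, MCL1, a short-lived protein on which many carcinoma cells depend, was the highest and BCL2 the lowest. MCL1 lay at 0.47 ± 0.34 over 6 probe sets, 5 of them above 0, from -0.071 to 0.88. BCL2, the founding member of the family, lay at -0.27 ± 0.45 over 4 probe sets. They read -0.45, -0.12, -0.047 and 0.083 in the shKDM4A array, against 0.45, 0.12, 0.047 and -0.083 in the control array. The probe sets of BCL2 thus disagreed in direction, with differences from -0.89 to 0.17, and 2 of the 4 were tied with other probe sets. BCL2L1, which encodes BCL-xL, lay at 0.12 ± 0.23 over 4 probe sets, and BCL2L2, which encodes BCL-w, at 0.14 ± 0.034 over 2. BCL2L10 lay at -0.029 ± 0.023 over 2. For both BCL2L2 and BCL2L10, 1 of the 2 probe sets was tied.

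Of the 5 survival genes, only BCL2L1 changed sign with the type of probe set. Affymetrix gives the endings _x_at and _s_at to probe sets whose probes may also bind other transcripts or shared isoforms. When these were left out, BCL2L1 lay at -0.049 and BCL2 at -0.49, each over 2 probe sets, whereas MCL1 lay at 0.38 over 3. The median of the role was then -0.029. BCL2L2 overlaps the read-through gene BCL2L2-PABPN1 in the RefSeq annotation, and their transcripts may share probes.

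Of the effectors, which form the pores in the outer mitochondrial membrane, BAX was the 1 gene past 1.5-fold. BAX read 0.30 and 0.29 by its 2 probe sets in the shKDM4A array, against -0.30 and -0.29 in the control array. The difference was 0.59 ± 0.026, or 1.51-fold, and 4.23% of all genes lay at least this high. The probe sets of BAX differed far less from each other than the pooled SD of 0.33, although both end in _s_at, so no probe set without that ending was there to set beside them. BAK1, the other pore former with a broad tissue range, lay at 0.080 on a single tied probe set. BOK, a relative active at the endoplasmic reticulum, lay at -0.052 ± 0.25 over 2 probe sets on opposite sides of 0. The one above 0 was tied, and the other, at -0.23, was not.

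Set against the survival proteins on the same arrays, the BAX difference exceeded that of BCL2 by 0.86 (1.81-fold), that of BCL2L1 by 0.47 and that of MCL1 by 0.12. The first of these gaps is a ratio often read in studies of apoptosis. It shows unequal change between the genes, not their levels, and it inherits the disagreement among the BCL2 probe sets. Against MCL1 the gap lay within the pooled SD of 0.33 between probe sets.

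Of the BH3-only members, 5 genes lay above 0 and 2 below. BIK, a BH3-only protein of the endoplasmic reticulum, read 0.68 in the shKDM4A array, against -0.68 in the control array. That is a difference of 1.37, or 2.58-fold higher, and 0.452% of all genes lay at least this high. BIK rests on 1 untied probe set, so nothing on these arrays checks it.

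PMAIP1, which encodes NOXA, a partner that drives MCL1 to degradation, was next. Its 2 probe sets read 0.34 and 0.18 in the shKDM4A array, against -0.34 and -0.18 in the control array. Both lay higher in the knockdown, for a difference of 0.53 ± 0.23, or 1.44-fold. The gap to its partner was small, since PMAIP1 exceeded MCL1 by 0.062. BMF, which is released from the cytoskeleton when cells detach, lay at 0.43 on 1 probe set.

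BID, the substrate through which CASP8 signals to mitochondria, lay at 0.29 ± 0.25 with all 3 probe sets above 0, from 0.14 to 0.58. BAD, held inactive by phosphorylation under growth factor signals, lay at 0.20 ± 0.46 with 2 probe sets above 0 and 1 below. BAD overlaps GPR137 in the annotation, which itself lay at 0.26.

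The 2 BH3-only genes below 0 were BCL2L11 and HRK. BCL2L11, which encodes BIM, a direct activator of BAX, lay at -0.38 ± 0.22, and all 6 of its probe sets lay below 0, from -0.75 to -0.15. None of the 6 was tied. HRK, best known in neurons, lay at -0.35 ± 0.23 with 4 of 5 probe sets below 0, though 3 of the 5 were tied. BCL2L11 lay 0.84 below MCL1, a survival protein that binds its product (difference of the gene values -0.84).

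The BNIP3 pair lay apart. BNIP3, a target of hypoxia-inducible factor, lay at 0.46 ± 0.24 with probe sets at 0.29 and 0.63. Its paralog BNIP3L, which clears mitochondria from maturing red blood cells, lay at -0.45 ± 0.47 with probe sets at -0.78 and -0.12. The gap between the gene values was 0.91, or 1.88-fold, and each gene rests on 2 probe sets. BNIP3 overlaps PPP2R2D in the annotation, which lay at 0.31.

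**Figure D2:**
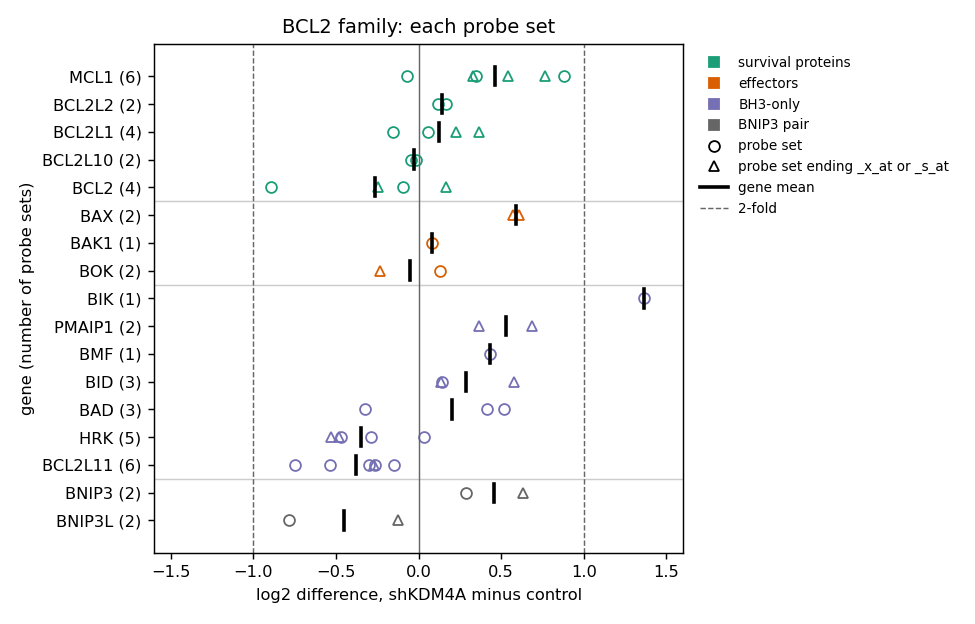
Each probe set of the 17 measured genes of the BCL2 family, as log2 difference, shKDM4A minus control, with the gene mean as a black bar and dashed lines at 2-fold. Triangles are probe sets ending in _x_at or _s_at. All 6 probe sets of BCL2L11 sit below 0, both of BAX sit near 0.59, and those of BCL2 spread from -0.89 to 0.17.

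BAX and PMAIP1 are both established targets of p53, which LNCaP cells retain in wild-type form, and both lay above 0 with every probe set. They were picked after their values were seen. Among other p53 targets, FAS lay at 1.89. TNFRSF10B lay at -0.34 ± 0.46 over 4 probe sets, from -0.63 to 0.34. APAF1 lay at -0.19 ± 0.51 with 2 of its 3 probe sets above 0, so the direction of neither is settled. A p53 response was not tested. Promoter windows from RefSeq (GRCh38.p14, 250 bases before to 50 after each start) were searched on both strands. The motif was the p53 half-site consensus, a single decamer with no mismatch. It was present in 6.63% of 35116 windows of the annotation, and in 3 of 47 windows of the 25 measured members that have one, those of BAK1, CASP8 and CASP9. The windows of BAX and PMAIP1 held none, and that of BAK1 held 1, at -73 to -64 relative to its start. With a share of 6.63% most windows hold none, so the search cannot set these genes apart. The windows are shown as examples, picked after the gene values were seen. Lower case marks bases outside a match and capitals mark the half-site.
BAX, chr19:48954625-48954924, plus strand: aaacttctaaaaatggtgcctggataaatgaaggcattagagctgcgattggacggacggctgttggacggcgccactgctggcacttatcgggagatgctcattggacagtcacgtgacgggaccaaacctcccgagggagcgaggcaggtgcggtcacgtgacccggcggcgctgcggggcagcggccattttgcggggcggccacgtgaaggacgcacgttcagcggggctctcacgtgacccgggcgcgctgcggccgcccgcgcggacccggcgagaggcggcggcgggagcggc
PMAIP1, chr18:59899746-59900045, plus strand: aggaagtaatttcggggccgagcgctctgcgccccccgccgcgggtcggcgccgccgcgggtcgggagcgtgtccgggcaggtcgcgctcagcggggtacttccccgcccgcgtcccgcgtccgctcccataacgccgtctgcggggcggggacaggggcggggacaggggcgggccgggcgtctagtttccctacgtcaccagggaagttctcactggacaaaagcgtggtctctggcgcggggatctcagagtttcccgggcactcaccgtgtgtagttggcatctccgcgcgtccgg
BAK1, chr6:33580227-33580526, minus strand: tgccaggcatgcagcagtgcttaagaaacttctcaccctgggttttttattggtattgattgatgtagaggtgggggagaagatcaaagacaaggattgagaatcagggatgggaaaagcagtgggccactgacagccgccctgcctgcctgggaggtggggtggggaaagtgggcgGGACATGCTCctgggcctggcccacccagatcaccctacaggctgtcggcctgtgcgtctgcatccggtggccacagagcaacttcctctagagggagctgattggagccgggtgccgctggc

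A match in such a window is no measure of binding, and its lack says only that these letters are not there, since response elements can lie farther away or deviate from the consensus. CASP8 and CASP9, the other members with a half-site, lay at 0.080 and 0.069. The E2F motif (TTTCGCGC or TTTGGCGC, both strands) was in 1.15% of all windows and in none of the 47 windows of measured members. BIK and MCL1 had no window in the table.

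The caspases, the proteases that dismantle the cell, lay within a narrow band, from -0.30 to 0.080, and none of the 7 genes reached 1.5-fold in either direction. Among the initiators, CASP8 lay at 0.080 ± 0.11 over 3 probe sets, CASP9 at 0.069 ± 0.099 over 2 and CASP10 at -0.012 ± 0.12 over 4. All 3 probe sets of CASP8 and 3 of the 4 of CASP10 were tied. CASP2, the initiator recruited by the PIDDosome, lay at -0.096 ± 0.29 over 7 probe sets, 5 below 0 and 2 above, so its direction is not settled. Of the 2 above, the one at 0.45 was tied and ends in _x_at, and the one at 0.030 was untied. CASP2 lay at -0.21 without tied values and at -0.19 without _x_at and _s_at probe sets.

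CASP6, an executioner that cleaves lamins, lay at -0.15 ± 0.18 over 2 probe sets. The inflammatory caspases differed slightly. CASP4, a sensor of bacterial lipopolysaccharide in the cytosol, lay at -0.30 ± 0.13 with both probe sets below 0, while CASP1, the protease of the inflammasome, lay at 0.057 ± 0.037 on 2 tied probe sets. Tied values were most common in this role, with 10 of 22 probe sets (45.5%). Without them the caspase median, over 5 genes, was -0.15.

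Of the inhibitor proteins, 3 of 4 lay below 0. XIAP, which binds and blocks active caspases, lay at -0.35 ± 0.18, and all 7 of its probe sets lay below 0, from -0.56 to -0.097. Over the 3 probe sets without an _x_at or _s_at ending it lay at -0.27. BIRC2, a ubiquitin ligase of the TNF receptor complex, lay at -0.12 on 1 probe set. BIRC6, a giant ubiquitin ligase, was the exception at 0.25 ± 0.072, with both probe sets above 0.

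CFLAR, the relative of CASP8 that lacks protease activity and blocks its activation at death receptors, had the lowest gene value of the 32 members. It lay at -0.52 ± 0.41 over 12 probe sets, 1.44-fold lower, and 5.38% of all genes lay at least this low. The 3 lowest probe sets read -0.57, -0.50 and -0.47 in the shKDM4A array, against 0.57, 0.50 and 0.47 in the control array. The next 4 had differences of -0.74, -0.63, -0.55 and -0.49, and the 4 after these -0.37, -0.37, -0.30 and -0.0014. The last, at 0.26, was the only one above 0. The lowest 2, which were 2.19-fold and 2.01-fold lower, are the only member probe sets past that size downward.

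The CFLAR value depends on which probe sets are read. Of the 12, 10 end in _x_at or _s_at. The other 2 lay at -0.37 and 0.26, for a mean of -0.055. The probe set at 0.26 was tied, as was the one at -0.0014. Without tied values CFLAR lay at -0.65 over 10 probe sets. CFLAR, CASP10 and CASP8 are related genes on chromosome 2, and CASP8 exceeded CFLAR by 0.60.

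Among the adaptors, FADD, the bridge from death receptors to CASP8, lay at -0.29 on 1 probe set. APAF1, the scaffold of the apoptosome, lay at -0.19 ± 0.51, but its probe sets ran from -0.79 to 0.15 and the 2 above 0 were tied. The median over its probe sets was 0.058, so the direction is not settled. The IAP antagonists both lay above 0. DIABLO, which encodes SMAC, lay at 0.42 on 1 probe set, and HTRA2, a mitochondrial serine protease, at 0.44 ± 0.27 with probe sets at 0.25 and 0.63.

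DIABLO thus lay 0.77 above XIAP, the IAP that its product displaces from caspases, and HTRA2 lay 0.79 above it. Every probe set of the 2 antagonists lay above 0 and every probe set of XIAP below 0. The 3 probe sets of the antagonists all end in _s_at, so neither gene had a value without them. HTRA2 overlaps AUP1 and LOXL3 in the annotation, which lay at 0.090 and 0.13. Overlapping genes did not always share the sign of the member. B3GNT4 lay at -0.019 and LOC101593348 at 0.15, both overlapping DIABLO. MCUB, which overlaps CASP6, lay at 0.24, and ANKS1B, which overlaps APAF1, at -0.25.

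**Figure D3:**
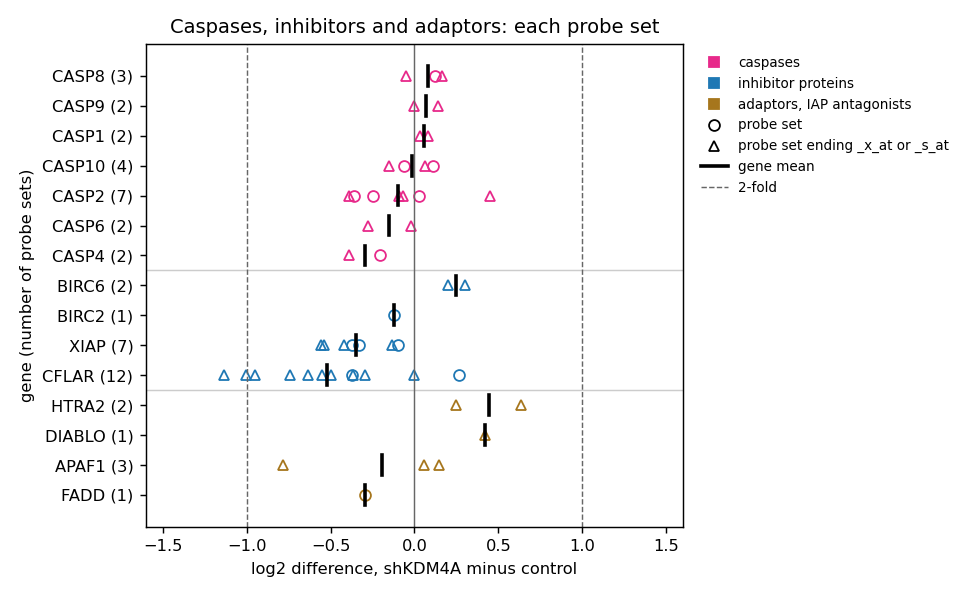
Each probe set of the 15 measured caspases, inhibitor proteins, adaptors and IAP antagonists, as log2 difference, shKDM4A minus control, with the gene mean as a black bar and dashed lines at 2-fold. Triangles are probe sets ending in _x_at or _s_at. CFLAR spreads from -1.13 to 0.26, all 7 probe sets of XIAP sit below 0, and the caspase gene means lie between -0.30 and 0.080, with single probe sets from -0.39 to 0.45.

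Agreement between probe sets was ordinary for these arrays. Every probe set lay on 1 side of 0 for 14 (53.8%) of the 26 members that have at least 2, against 50.3% of 8944 such genes in all. The 8 with every probe set above 0 were BAX, BCL2L2, BID, BIRC6, BNIP3, CASP1, HTRA2 and PMAIP1. The 6 with every probe set below 0 were BCL2L10, BCL2L11, BNIP3L, CASP4, CASP6 and XIAP.

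Outside the members, 47 of 54 other listed genes of cell death were measured, and of these 2 were higher and 1 was lower by 2-fold or more, against 1.16% and 1.44% of all genes. Their median was 0.056. FAS, the death receptor that FADD serves, was 3.71-fold higher by its gene mean. Its 5 probe sets read from 0.37 to 1.28 in the shKDM4A array, against -0.37 to -1.28 in the control array. The difference was 1.89 ± 0.69. The 1 FAS probe set without an _x_at or _s_at ending lay at 0.73, short of 2-fold. Of the 11 death receptors and ligands measured, 9 lay above 0, as did 53.7% of all genes, with TNFRSF21 next at 0.64 ± 0.24 over 2 probe sets.

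The other IAPs lay far apart. NAIP, an inflammasome receptor with IAP repeats, was 2.36-fold higher (1.24 ± 0.51 over 3 probe sets). BIRC5, which encodes survivin and works in mitosis, was 2.53-fold lower (-1.34 ± 0.72 over 4). The 1 NAIP probe set without an _x_at or _s_at ending lay at 0.68, short of 2-fold, and those of BIRC5 at -1.46 and -0.65. BIRC5 read from -1.14 to -0.32 in the shKDM4A array, against 1.14 to 0.32 in the control array. BIRC7 lay at 0.10. By gene means, the 3 measured IAPs among the members thus stayed within 1.5-fold. Of the 3 IAP genes outside the list, 2 exceeded 2-fold in opposite directions.

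Downstream of the mitochondria, 8 of 10 genes of membrane permeation and execution lay above 0, again beside 53.7% of all genes, and none by 2-fold. DFFB, the nuclease that cuts DNA between nucleosomes, lay at 0.77 and AIFM1, a flavoprotein released from mitochondria, at 0.65, each on 1 probe set. Of 6 receptor complex proteins, 3 lay above 0, with PIDD1, the scaffold that recruits CASP2, at 0.42 ± 0.17 over 2 probe sets and DEDD at 0.39 ± 0.14 over 3. Of 8 inflammasome and pyroptosis genes, 6 lay below 0, led by GSDME at -0.30 and NLRP3 at -0.28 ± 0.21 over 2. The 7 other BCL2 relatives lay between BCL2L12 at -0.16 and BNIP1 at 0.25 ± 0.045 over 3. The 2 other caspases measured, CASP5 and CASP14, lay at -0.012 and 0.083.

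**Figure D4:**
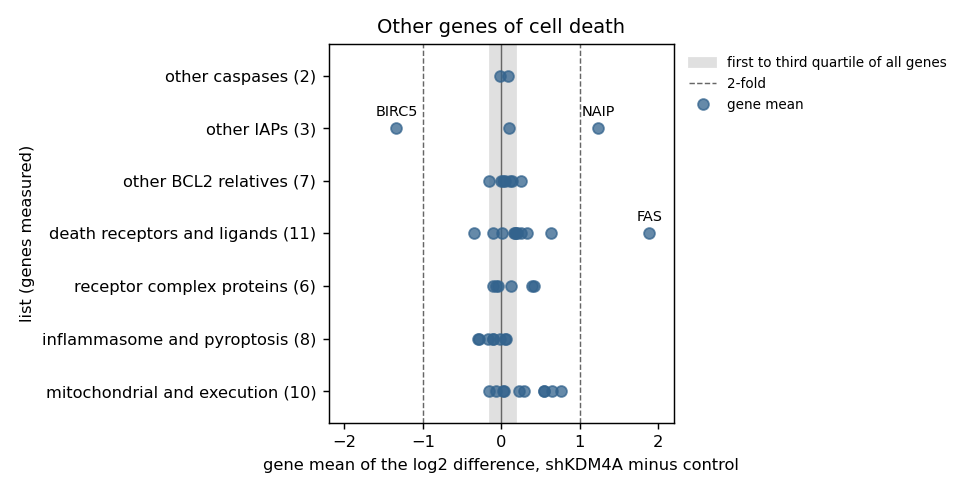
Gene means of the log2 difference, shKDM4A minus control, for 47 measured genes of cell death outside the members, by list, with the span between the quartiles of all genes shaded and dashed lines at 2-fold. FAS at 1.89 and NAIP at 1.24 lie beyond the line on the right and BIRC5 at -1.34 beyond the line on the left.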

How the data were processed

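RNA of 1 shKDM4A and 1 control culture was measured on 2 arrays. The authors deposited log2 values from RMA (robust multi-array averaging), per the submitters' processing notes, with no version given. In each row the 2 values sum to 0 within 1e-06, which shows centring on the row mean. The centring step, the log base and any filter are not stated there, and base 2 was taken because RMA works on it.

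Probe sets were named through the platform annotation, and all 32 measured members matched RefSeq symbols of GRCh38.p14 by Entrez identifier. Another 1619 probe sets with several genes, 8131 without a name here and 42 controls entered no gene value. With 1 array in each group no test was run, and 2-fold and 1.5-fold are rules of size. The gene mean over probe sets was used without a filter on signal, since no level remains. The calculation was tested on simulated data. No genome build is given for the array values.

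The members and lists were chosen with earlier results of these data known. All measured members are named. The rule asked for single probe set values of KDM4A and of members at least 1.5-fold apart, with a 2-fold probe set, or with probe sets on both sides of 0 spanning 1 or more. Single values of PMAIP1, BNIP3, BNIP3L and HTRA2 were added after they were seen. Of the other cell death lists, genes 2-fold apart and the 2 farthest from 0 are named, and TNFRSF10B was added. The marker genes named were also chosen after their values were seen. Pairs of partners, exact ties and the motif search were chosen after seeing the data. Python 3.11.15, numpy 2.4.6, pandas 2.3.3 and matplotlib 3.10.9 were used.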

Additional observations from a re-analysis of the deposited data

How the results depend on the processing

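The alternatives were the median over probe sets, leaving out every _x_at and _s_at probe set, subtracting the median difference, genes with 2 or more probe sets, size rules of 1.5-fold and 3-fold, and 2 other role assignments. Leaving out tied values was added after seeing the data. A median counted as moved when it changed by more than the pooled SD between probe sets divided by the square root of the number of genes.

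BIK was the only member at least 2-fold higher, and the count was 0 among genes with 2 or more probe sets and at 3-fold, and 2 at 1.5-fold. No member was at least 2-fold lower under any setting run. For all genes the higher and lower counts were 80 and 140 with 2 or more probe sets, 760 and 774 at 1.5-fold, and 45 and 81 at 3-fold. Without _x_at and _s_at probe sets the member median was -0.029 over 23 genes, the survival median -0.029, the BNIP3 pair -0.25 and the adaptor and antagonist median -0.29, the last resting on FADD alone. The inhibitor median was then -0.12, as it also was with CFLAR among the adaptors. That setting turned the sign of 3 of 23 genes, all with values within 0.13 of 0, and medians over probe sets turned that of 1 of 32, APAF1, which lay at 0.058. Without tied values the member median was -0.045 over 29 genes and the caspase median -0.15 over 5, with no sign turned among 29 genes. The BH3-only median was 0.42 with medians over probe sets, and the adaptor and antagonist median was -0.19 with CFLAR counted there. The cause of these changes was not tested beyond the loss of genes and probe sets that each setting makes. BAX fell short of 1.5-fold, at 0.57, when the median difference was subtracted. No paired analysis was possible because each group had 1 array. Signal over background is lost by the centring, so the precision of dim probe sets cannot be given.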
